A study of Mus musculus with 12 samples.

Results

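The 10 genes described here encode plasma proteins of the acute-phase response and the metal-binding metallothioneins: Saa1, Saa2, Saa3, Orm1, Orm2, Lcn2, Hp, Hpx, Mt1 and Mt2. They were taken by symbol from the 17007 genes of the deposited expression table, and all 10 were found and passed the filter on low values. RNA was sequenced in 4 groups of 3 libraries, each taken as a separate mouse. Normal livers came from wild-type C57BL/6 mice. The other 9 libraries came from c-MYC/MCL1/RictorKO Tsc2KO liver tumors, which were raised by hydrodynamic injection of plasmids for c-MYC, MCL1, Cre and the sleeping beauty transposase into C57BL/6J mice in which Rictor and Tsc2 were both floxed (Rictor fl/fl, Tsc2 fl/fl). Hydrodynamic injection is a fast injection of plasmids in a large volume into the tail vein, after which hepatocytes take them up. The oncogenes were driven by the EF1α promoter and Cre by the CMV promoter, so Rictor and Tsc2 were deleted in the cells that took up Cre, in the vehicle group as well as in both drug groups. Normal liver therefore differed from every tumor in genotype and in injection at once, and these cannot be told apart. Tumor-bearing mice received vehicle, MLN0128 at 1 mg/kg per day or everolimus at 1 mg/kg per day by gavage on 6 days a week for 3 weeks, starting on day 6 after injection, and were sacrificed at 3.7 weeks, as the labels and methods give it. The study's account of the RNA-seq experiment elsewhere gives an exposure of days rather than weeks, so the length of drug exposure behind every drug comparison here is uncertain. MLN0128 inhibits the mTOR kinase in both of its complexes, whereas everolimus, a rapamycin analog, acts on mTORC1.

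In an acute-phase response, hepatocytes change which plasma proteins they make when cytokines reach the liver. IL-6 acts through its receptor, JAK kinases and STAT3, IL-1 and TNF act through NF-kB, and C/EBP factors and glucocorticoids add to the response. Serum amyloid A, orosomucoid, haptoglobin and hemopexin are positive acute-phase proteins, and albumin is a negative one. Metallothioneins bind zinc and copper and are switched on by the zinc-sensing factor MTF1, by glucocorticoids and by the same cytokines.

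Values were fragments per kilobase of transcript scaled to library size (FPKM), with an added scaling between libraries that the authors had applied. Reads recovered from the FPKM numbered 17173014 to 25185278 per library, at which 3 reads on a transcript of 2 kb correspond to 0.0495 to 0.144 FPKM. A gene was called when limma's treat test on log2(FPKM + 1), set to ask for more than a 1.5-fold change, gave a Benjamini-Hochberg adjusted p under 0.05 over all 14397 genes tested. The moderated test, which asks for any change, is given beside it. Log2 fold changes are on the log2(FPKM + 1) scale and understate changes of low genes. MLN0128 replicates 1 and 2 held Xist RNA at 191 and 155 FPKM, against 0.0699 FPKM in MLN0128 replicate 3. Xist was 0.00885 to 0.0267 FPKM in all normal liver, vehicle and everolimus libraries. High Xist RNA thus occurred only in the MLN0128 group, and differences that go with it cannot be fully told apart from the drug. MLN0128 comparisons are therefore also given without replicates 1 and 2. The normal livers had the defining markers of hepatocytes, with a summed level of 8 markers (of 9 listed) of 77854 to 97824 FPKM. The same sum was 4027 to 6203 FPKM with vehicle, 1855 to 4096 FPKM with MLN0128 and 3193 to 8043 FPKM with everolimus. In bulk samples, fewer hepatocytes and less RNA of a gene per hepatocyte cannot be told apart.

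The 3 serum amyloid A genes lie near each other on chromosome 7 (GRCm38), with Saa4 (46727998-46732603) between Saa3 and Saa1, where the GENCODE annotation places Saa3 at 46711998-46715700 and Saa1 at 46740497-46742980 on the minus strand and Saa2 at 46751790-46754313 on the plus strand. Saa1 and Saa2 make the circulating, lipoprotein-bound forms, and Saa3 is the form that is also made outside hepatocytes, for example by macrophages. RefSeq promoter sequences (GRCm38.p6, 250 bases before to 50 after the gene start) were found for 8 of the 10 genes. The stretches of the 3 Saa genes from base -230 to base -31 are shown because the genes did not move together, and capitals mark matches to the C/EBP motif TTGCNNAA on either strand. Saa1 is chr7:46743011-46743210 on the minus strand, Saa2 is chr7:46751603-46751802 on the plus strand and Saa3 is chr7:46715707-46715906 on the minus strand.
Saa1: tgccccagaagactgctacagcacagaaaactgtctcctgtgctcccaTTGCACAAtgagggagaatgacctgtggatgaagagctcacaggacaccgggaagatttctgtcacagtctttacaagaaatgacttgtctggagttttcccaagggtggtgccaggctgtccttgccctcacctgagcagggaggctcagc
Saa2: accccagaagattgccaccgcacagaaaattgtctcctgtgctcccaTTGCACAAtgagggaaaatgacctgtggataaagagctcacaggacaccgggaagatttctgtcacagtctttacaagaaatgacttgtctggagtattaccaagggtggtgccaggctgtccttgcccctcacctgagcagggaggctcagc
Saa3: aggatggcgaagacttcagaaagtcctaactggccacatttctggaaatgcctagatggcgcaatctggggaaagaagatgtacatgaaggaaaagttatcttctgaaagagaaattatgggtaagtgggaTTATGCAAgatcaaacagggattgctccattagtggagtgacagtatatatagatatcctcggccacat
After alignment, 95.3% of the columns of the 300-base promoters of Saa1 and Saa2 were identical, compared with 51.3% for Saa1 and Saa3. Each of the 3 held 1 match to the C/EBP motif, which 10.8% of the 32851 promoters in the table hold. No match to the STAT motif TTCNNNGAA or to the NF-kB consensus was found in any of the 8 promoters, and these motifs were present in 8.30% and 4.51% of all promoters.

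Saa3 had the largest rise of the 10 genes in vehicle-treated tumors. Its level was 3.84, 2.47 and 5.44 FPKM in normal livers 1 to 3 and 105, 69.3 and 63.1 FPKM in vehicle-treated tumors 1 to 3. With MLN0128 it was 13.1, 23.3 and 45.2 FPKM, and with everolimus it was 5.14, 16.3 and 12.3 FPKM. All vehicle-treated tumors lay above all other libraries, and the lowest everolimus library lay within the range of normal liver. Saa3 rose in vehicle-treated tumors against normal liver by 4.04 on the log2 scale (SE 0.449, n = 3 per group; limma's treat adjusted p = 3.86e-05), and this call held under each of the 24 alternatives, with values from 3.22 to 5.31. The order of the means was vehicle (79.1 ± 22.6 FPKM, SD, n = 3), MLN0128 (27.2 ± 16.4), everolimus (11.2 ± 5.65) and normal liver (3.92 ± 1.49). The difference between MLN0128 and everolimus, neighbours in this order, missed limma's moderated test (adjusted p = 0.123).

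Saa1 went the other way. Its level was 36.4, 21.2 and 45.3 FPKM in normal liver, 8.27, 0.555 and 6.25 FPKM with vehicle, 3.35, 1.5 and 13.4 FPKM with MLN0128 and 7.05, 34.9 and 8.54 FPKM with everolimus. Vehicle and MLN0128 libraries all lay below normal liver, whereas everolimus replicate 2 lay within it. Saa1 fell by 2.84 on the log2 scale in vehicle-treated tumors (SE 0.787; limma's treat adjusted p = 0.0262). The call was lost without normal liver replicate 1 or 3 or without vehicle replicate 2 (limma's treat adjusted p = 0.0671, 0.0853 and 0.117), and with equal FPKM sums, quantile normalization or plain library totals (0.196, 0.0685 and 0.0814). Means were ordered normal liver (34.3 ± 12.2 FPKM), everolimus (16.8 ± 15.7), MLN0128 (6.08 ± 6.40) and vehicle (5.03 ± 4.0), and no difference between neighbours in this order passed the moderated test.

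Saa2 was 6.37, 3.93 and 10.4 FPKM in normal liver, 2.58, 0.0565 and 1.84 FPKM with vehicle, 1.17, 0.279 and 7.98 FPKM with MLN0128 and 1.89, 20.6 and 3.59 FPKM with everolimus. Its vehicle and normal liver groups did not overlap, but the difference of -1.76 on the log2 scale (SE 0.813) missed both tests (limma's moderated adjusted p = 0.0735). Saa1 and Saa2 share 31.1% of the 50-base words of the Saa1 transcripts, so reads may have been split between them. The annotated transcripts cover nearly all of the gene, introns included, and the share within the spliced RNA alone was not measured. The Saa1 to Saa2 ratio was 1.68 to 9.82 over the 12 libraries. Its top value was in vehicle replicate 2, where Saa2 rests on 3 reads, and the next highest was 5.71 in normal liver 1. The ratio of Saa1 to Saa3, which does not depend on the scaling between libraries, was 8.33 to 9.48 in normal liver and 0.00801 to 0.0990 in vehicle-treated tumors. With MLN0128 it was 0.0644 to 0.296 and with everolimus 0.694 to 2.14, so the ranges of the 4 groups did not touch except for vehicle and MLN0128.

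**Figure D1:**
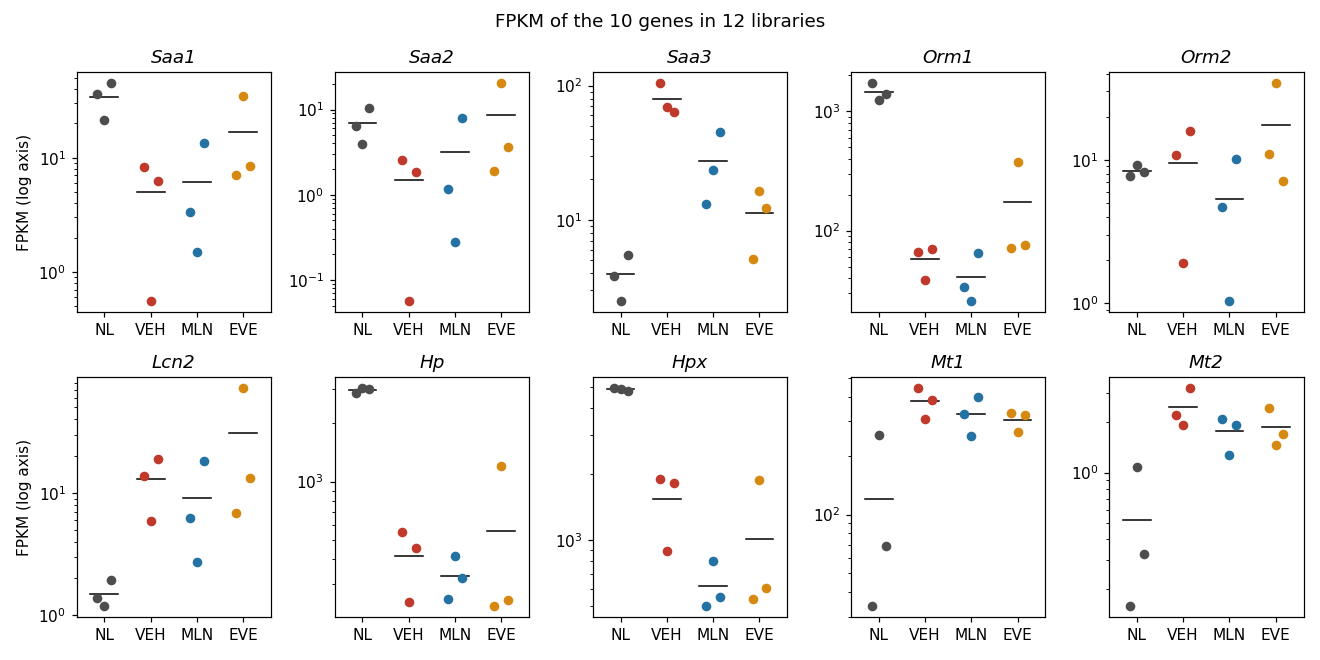
FPKM (log axis) of the 10 genes in normal liver (NL) and in tumors given vehicle (VEH), MLN0128 (MLN) or everolimus (EVE), 1 point per library in the order of replicates 1 to 3, with a line at the mean of each group. Saa3 is at 63.1 to 105 FPKM with vehicle and 2.47 to 5.44 FPKM in normal liver, whereas Orm1, Hp and Hpx are highest in normal liver.

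Orm1 and Orm2 encode orosomucoids, the plasma glycoproteins that carry basic drugs and lipids, and lie on chromosome 4 at 63344560-63348163 and 63362449-63365878. Orm1 was 1730, 1240 and 1390 FPKM in normal liver and 66.4, 38.3 and 69.5 FPKM with vehicle. It was 33.4, 25.6 and 64.6 FPKM with MLN0128 and 71.0, 375 and 75.6 FPKM with everolimus. No tumor reached the normal livers, and among tumors everolimus replicate 2 stood 4.96 times above the next. Orm1 fell by 4.66 on the log2 scale in vehicle-treated tumors (SE 0.552; limma's treat adjusted p = 5.51e-05) and this call held under each of the 24 alternatives, with values from -4.81 to -3.46.

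Orm2 was 7.66, 9.13 and 8.16 FPKM in normal liver, 10.8, 1.90 and 15.8 FPKM with vehicle, 4.72, 1.03 and 10.2 FPKM with MLN0128 and 10.9, 34.5 and 7.10 FPKM with everolimus. The ranges of the 4 groups overlapped, and none of the 6 comparisons passed either test. The vehicle value of -0.16 against normal liver has a 95% interval from -1.76 to 1.44, and its sign turned with equal FPKM sums (0.87) and without vehicle replicate 2 (0.60). Orm1 and Orm2, whose exons have the same summed length of 775 bases, stood at a ratio of 136 to 226 in normal liver and 4.40 to 24.9 in tumors. They share 20.4% of the 50-base words of Orm1, so Orm2 in particular is uncertain where Orm1 is abundant.

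Hp encodes haptoglobin, which binds free hemoglobin, and Hpx encodes hemopexin, which binds heme. Hp (chromosome 8, 109575128-109579172) was 2840, 3020 and 2970 FPKM in normal liver, 552, 241 and 456 FPKM with vehicle, 251, 416 and 322 FPKM with MLN0128 and 229, 1200 and 247 FPKM with everolimus. Hpx (chromosome 7, 105591613-105600137) was 4930, 4870 and 4770 FPKM in normal liver and 1890, 891 and 1810 FPKM with vehicle. It was 497, 802 and 551 FPKM with MLN0128 and 538, 1870 and 606 FPKM with everolimus. The normal livers differed little, with a coefficient of variation of 3.16% for Hp and 1.66% for Hpx, and every tumor lay below them.

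Hp fell by 2.90 on the log2 scale in vehicle-treated tumors (SE 0.536; limma's treat adjusted p = 0.00258) and Hpx fell by 1.74 (SE 0.444; adjusted p = 0.0376). The Hp call was lost with equal FPKM sums and with quantile normalization (limma's treat adjusted p = 0.0771 and 0.269). Leaving out any normal liver library or vehicle replicate 2 ended the Hpx call, with adjusted p of 0.0800, 0.0761, 0.0769 and 0.158 by limma's treat, and with equal FPKM sums and quantile normalization the Hpx difference was -0.54 and -0.16. The Hpx call was also lost with a pseudocount of 5, without the filter on low values and with plain library totals (limma's treat adjusted p = 0.0571, 0.0552 and 0.428). The ratio of Hpx to Hp was 1.61 to 1.74 in normal liver and 3.42 to 3.97 with vehicle. It was 1.71 to 1.98 with MLN0128 and 1.56 to 2.45 with everolimus. Set against Alb, the albumin gene, in the same library, Hpx was 0.0623 to 0.0862 in normal liver and 0.935 to 1.06 with vehicle, and Hp was 0.0388 to 0.0497 and 0.248 to 0.310. Albumin RNA was thus lower in vehicle-treated tumors by a larger factor than the RNA of either scavenger.

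Lcn2 encodes lipocalin 2, which takes iron-carrying siderophores from bacteria and is made by neutrophils as well as by stressed hepatocytes. The gene lies on chromosome 2 at 32384633-32388252. It was 1.38, 1.18 and 1.94 FPKM in normal liver, 13.8, 5.90 and 19.1 FPKM with vehicle, 6.20, 2.75 and 18.1 FPKM with MLN0128 and 6.90, 72.1 and 13.3 FPKM with everolimus. Each tumor was above each normal liver. The vehicle difference of 2.36 on the log2 scale (SE 0.752) passed limma's moderated test (adjusted p = 0.0149) but missed the treat test (0.0587). It passed treat without vehicle replicate 2, MLN0128 replicate 2 or 3, or everolimus replicate 1 or 2 (limma's treat adjusted p = 0.0414, 0.0471, 0.0410, 0.0379 and 0.0148). It also passed with only both groups in the model, equal FPKM sums, a pseudocount of 0.1 and without MLN0128 replicates 1 and 2 together (0.00319, 0.0132, 0.0232 and 0.0478).

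The summed level of 6 neutrophil markers (of 10 listed) was 3.98, 18.5 and 3.26 FPKM in normal livers 1 to 3. In vehicle-treated tumors 1 to 3 it was 5.89, 6.33 and 6.43 FPKM. With MLN0128 it was 1.46 to 6.75 FPKM and with everolimus 3.04 to 8.73 FPKM. Its highest value was in normal liver 2, whereas normal livers 1 and 3 lay below all vehicle-treated tumors. Of these markers, Ngp was at 0 in 4 libraries, Retnlg in 3 and Ltf in 2. All 8 macrophage and Kupffer cell markers were in the table, and their sum was 219.7 to 265.9 FPKM in normal liver, 60.4 to 96.0 FPKM with vehicle, 25.0 to 36.4 FPKM with MLN0128 and 46.6 to 145.6 FPKM with everolimus. None of these markers was at 0. The sum was thus lower in vehicle-treated tumors, where Saa3 and Lcn2 were higher. Of the neutrophil and macrophage markers, only Cd68 and Ltf were higher in every vehicle library than in every normal liver. Adgre1, Clec4f, Csf1r, Vsig4, Timd4 and Cd5l were lower in every vehicle library than in every normal liver. The ranges of the other markers overlapped between these groups. Cd68, a lysosomal protein of macrophages, was 4.80 to 5.75 FPKM in normal liver, 24.6 to 36.8 FPKM with vehicle, 5.37 to 12.4 FPKM with MLN0128 and 6.82 to 12.8 FPKM with everolimus, so that its vehicle libraries, like those of Saa3, lay above all others. Ltf, the lactoferrin gene, was 0 to 0.0789 FPKM in normal liver and 1.10 to 1.73 FPKM with vehicle. Both were chosen after their values were seen, and the part of these cells in the differences was not tested.

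Mt1 and Mt2 lie next to each other on chromosome 8, at 94179082-94180327 and 94172664-94173568. Their promoters are shown because the genes moved together and because the metal response element, the site that MTF1 binds, is the best known control sequence of these genes. Capitals mark matches to its core TGCACNC or TGCGCNC on either strand, and positions count from the RefSeq gene start, which for Mt1 begins a longer transcript. Mt1 is shown from base -173 to base 27 (chr8:94178916-94179115, plus strand) and Mt2 from base -230 to base 11 (chr8:94172388-94172628, plus strand).
Mt1: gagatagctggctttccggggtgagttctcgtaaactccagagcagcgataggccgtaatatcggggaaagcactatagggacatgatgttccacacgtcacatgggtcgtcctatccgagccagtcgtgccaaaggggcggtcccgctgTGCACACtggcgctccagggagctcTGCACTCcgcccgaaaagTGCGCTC
Mt2: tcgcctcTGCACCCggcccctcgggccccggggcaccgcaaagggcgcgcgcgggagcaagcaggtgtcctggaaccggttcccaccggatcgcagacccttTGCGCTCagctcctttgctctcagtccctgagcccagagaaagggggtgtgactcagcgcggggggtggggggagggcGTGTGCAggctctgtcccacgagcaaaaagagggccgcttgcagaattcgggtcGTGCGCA
Mt1 held 3 matches and Mt2 held 4 within 300 bases, whereas 25.7% of all promoters held any and 0.517% held 4 or more. The other 6 promoters found, of Saa1, Saa2, Saa3, Orm2, Lcn2 and Hpx, held 0.

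Mt1 was 33.8, 257 and 69.2 FPKM in normal liver, 445, 309 and 386 FPKM with vehicle, 326, 252 and 399 FPKM with MLN0128 and 330, 266 and 323 FPKM with everolimus. The normal livers spread 7.60-fold, and replicate 2 reached the level of MLN0128 replicate 2, whereas the vehicle group spread 1.44-fold. Mt1 rose by 2.14 on the log2 scale in vehicle-treated tumors (SE 0.533; limma's treat adjusted p = 0.0234). This call was lost without normal liver replicate 1 (1.49 on the log2 scale) and without normal liver replicate 3, vehicle replicate 1 or vehicle replicate 3 (limma's treat adjusted p = 0.0972, 0.0747, 0.0678 and 0.0550), and with only the normal livers and vehicle tumors in the model (0.0642).

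Mt2 was listed at 0.158, 1.08 and 0.326 FPKM in normal liver, 2.22, 1.94 and 3.21 FPKM with vehicle, 2.10, 1.28 and 1.92 FPKM with MLN0128 and 2.43, 1.46 and 1.71 FPKM with everolimus. These values rest on 1, 7 and 2 reads in the normal livers and on 16 to 44 reads in the tumors. All tumors lay above all normal livers, and Mt2 rose by 1.21 on the log2 scale with vehicle (SE 0.226; limma's treat adjusted p = 0.0285). Without normal liver replicate 1 or 3 or vehicle replicate 3 the call was lost (limma's treat adjusted p = 0.119, 0.0898 and 0.111), as it was with a pseudocount of 5 (0.43 on the log2 scale) and with quantile normalization (adjusted p = 0.0799). The Mt1 to Mt2 ratio was 120 to 238 in all 12 libraries. Of the 588 exon bases of Mt2, 432 are shared with an exon of the antisense gene Gm45774, which was listed at 0 to 0.516 FPKM, and whether the counting used strand is not given in the sources used here. Mt1 and Mt2 had no 50-base word in common with transcripts of another gene read in the same direction. Transcripts were not compared with the opposite strand, so this search could not show the overlap with Gm45774. Because of that overlap, the level of Mt2 is uncertain.

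**Figure D2:**
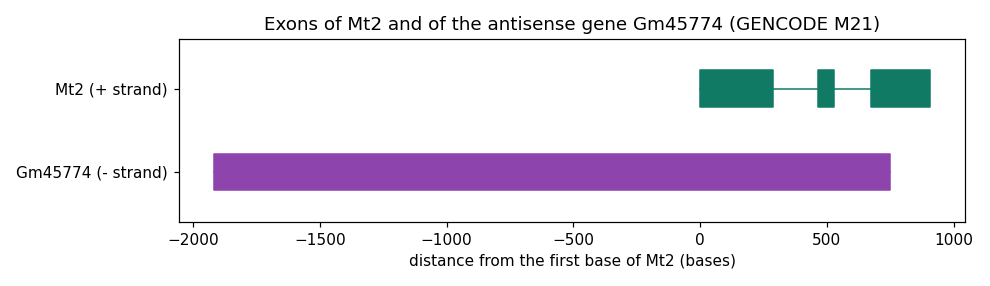
Exons of Mt2 (plus strand) and of the antisense gene Gm45774 (minus strand), as distance in bases from the first base of Mt2. The exon of Gm45774 reaches base 748 and covers 432 of the 588 exon bases of Mt2, leaving 156.

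Against normal liver, 3 members rose in vehicle-treated tumors (Saa3, Mt1 and Mt2) and 4 fell (Saa1, Orm1, Hp and Hpx) by limma's treat test. Of all genes tested, 15.9% were higher and 16.9% lower by the same test, and 32.7% were called in either direction. By the moderated test 4 members were higher and 4 lower, beside 36.0% and 33.0% of all genes. Groups did not overlap for 4 higher and 5 lower members, beside 39.0% and 35.1% of all genes. The median difference was -0.95 over the members and 0.06 over all genes. Scaling to equal FPKM sums moved the median of all genes to 0.78 and that of the members to 0.16, and 6158 genes were then called higher and 914 lower of 14663. Scaling by plain library totals moved the medians to 1.01 and -0.06, with 6752 genes higher and 1411 lower of 14283. With quantile normalization the median of the members was -0.16. Members that changed are thus best read against those shifts, and under both scalings the Saa3, Mt1 and Mt2 differences remained positive and those of Saa1, Orm1, Hp and Hpx negative.

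**Figure D3:**
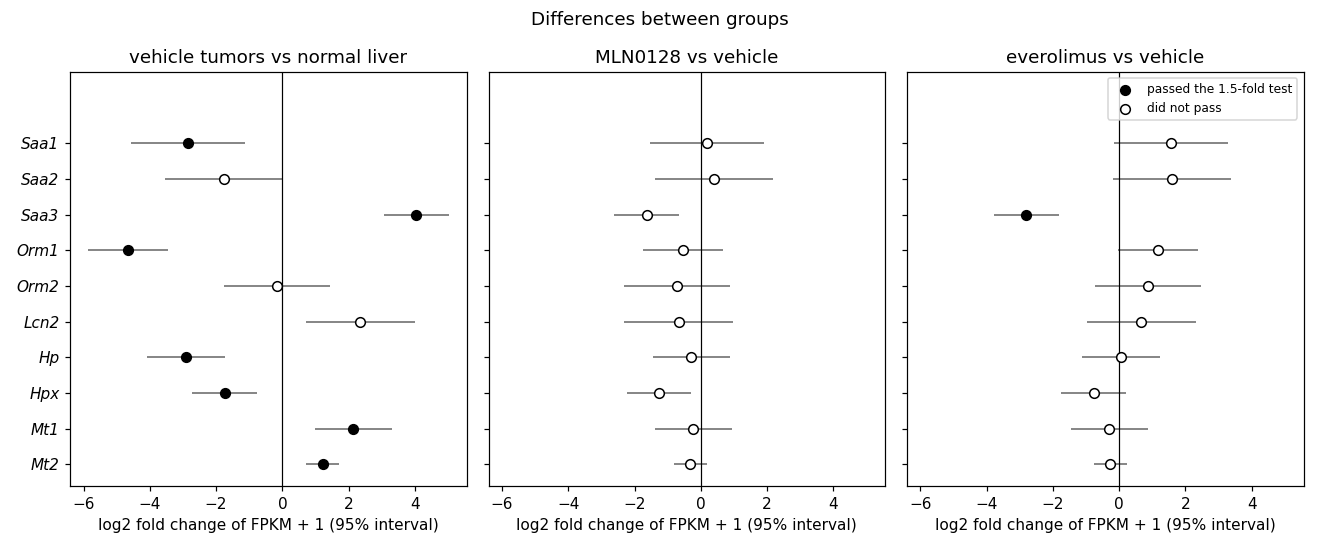
Log2 fold change of FPKM + 1 for the 10 genes in 3 comparisons, with 95% intervals. Filled points passed limma's treat test (more than a 1.5-fold change), which were 7 in vehicle-treated tumors against normal liver, 0 with MLN0128 against vehicle and 1 (Saa3) with everolimus against vehicle.

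With MLN0128 against vehicle, 0 members were called by limma's treat test, which called 2.13% of all genes, and 0 passed with either voom alternative. At an unadjusted moderated p under 0.05 there were Saa3 and Hpx. Both were lower by the moderated test after adjustment, as 17.1% of all genes were (32.0% in either direction), and in both the groups did not overlap, as for 23.4% of all genes. Saa3 was lower by 1.64 on the log2 scale (95% interval -2.62 to -0.66; limma's moderated adjusted p = 0.0166, treat adjusted p = 0.322). Hpx was lower by 1.26 (95% interval -2.24 to -0.29; limma's moderated adjusted p = 0.0484, treat adjusted p = 0.822). Without MLN0128 replicates 1 and 2, which leaves 1 library, the differences were -0.76 and -1.39. Leaving out MLN0128 replicate 3 gave -2.08 for Saa3. Over the other 8 members the lowest bound of the intervals was -2.32 (Orm2) and the highest 2.18 (Saa2), so differences of that size were within the spread between mice.

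With everolimus against vehicle, Saa3 alone was called (0.570% of all genes were called lower and 0.604% in either direction). It fell by 2.80 on the log2 scale (SE 0.449; limma's treat adjusted p = 0.0350, moderated adjusted p = 0.00376), and all 3 everolimus libraries lay below all 3 vehicle libraries, as for 14.8% of all genes. The difference was -3.11 to -2.37 over the 24 alternatives, with treat adjusted p from 0.0152 to 0.182. The call was lost without any 1 of the vehicle libraries (limma's treat adjusted p = 0.182, 0.0590 and 0.0829), without everolimus replicate 1 or 3 (0.158 and 0.0805), and without normal liver replicate 1 or 3 or MLN0128 replicate 2 (0.0643, 0.0521 and 0.0506). It was also lost with a pseudocount of 5, with quantile normalization and with only both groups in the model (limma's treat adjusted p = 0.0553, 0.0544 and 0.0945). Orm1 was higher in all 3 everolimus libraries than in any vehicle library, as were 17.6% of all genes, by 1.16 on the log2 scale (95% interval -0.05 to 2.37), and missed the moderated test (limma's adjusted p = 0.204).

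MLN0128 and everolimus were given at the same dose and, as labelled, for the same time, and 10 differences between them were tested. By limma's treat test 0 passed, beside 0.0417% of all genes, and by the moderated test after adjustment 0 passed, beside 9.53% of all genes. With voom on recovered reads 0 passed treat as well. At an unadjusted p under 0.05 by limma's moderated test there were 2, Orm1 and Saa3. Orm1 was lower with MLN0128 by 1.70 on the log2 scale (95% interval -2.91 to -0.50; limma's moderated adjusted p = 0.0739), with no overlap between the groups, as for 15.2% of all genes. The Saa3 difference was 1.16 (95% interval 0.18 to 2.14). Without MLN0128 replicates 1 and 2 the Orm1 and Saa3 differences were -0.96 and 2.04 on the log2 scale. The intervals for Mt1 (-1.10 to 1.24) and Mt2 (-0.54 to 0.45) were the ones that lay closest around 0.

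Both drug groups were also set against the same normal livers, so these comparisons share controls with each other and with the vehicle comparison. With MLN0128, 2 members rose (Saa3 and Mt1) and 4 fell (Saa1, Orm1, Hp and Hpx) by limma's treat test, beside 17.1% of all genes higher and 20.2% lower. With everolimus, 1 rose (Lcn2) and 3 fell (Orm1, Hp and Hpx), beside 16.9% and 18.4%. Lcn2 was higher with everolimus by 3.03 on the log2 scale (limma's treat adjusted p = 0.0131). Saa3 was higher with everolimus by 1.24 (limma's moderated adjusted p = 0.0272, passed by 35.9% of all genes, treat adjusted p = 0.205) and with MLN0128 by 2.40 (treat adjusted p = 0.00343). Mt1 was higher by 1.90 with MLN0128 (limma's treat adjusted p = 0.0416) and by 1.84 with everolimus (0.0540). The MLN0128 call of Mt1 was lost without normal liver replicate 1 or 3, vehicle replicate 1 or 3, MLN0128 replicate 1 or 3 or any everolimus library, with limma's treat adjusted p of 0.0511 to 0.185. That of Saa1 was lost without normal liver replicate 1 or 3 or MLN0128 replicate 1 or 2 (0.0822, 0.103, 0.0954 and 0.126). Without MLN0128 replicates 1 and 2 together, Saa1 was at -1.23 and Mt1 at 2.22 on the log2 scale against normal liver, and neither passed (limma's treat adjusted p = 0.617 and 0.105). Saa3 (3.28), Orm1 (-4.46), Hp (-3.19) and Hpx (-3.14) still passed. The MLN0128 call of Saa1 was also lost with a pseudocount of 5, equal FPKM sums, quantile normalization and plain library totals (limma's treat adjusted p = 0.0535, 0.333, 0.0943 and 0.129). That of Mt1 was lost with a pseudocount of 5, without the filter on low values and with only both groups in the model (0.0728, 0.0520 and 0.11). Equal FPKM sums and quantile normalization ended the MLN0128 calls of Hp (limma's treat adjusted p = 0.0605 and 0.206) and Hpx (0.0540 and 0.274). They also ended the everolimus calls of Hp (0.0891 and 0.332) and Hpx (0.137 and 0.644), where the Hpx difference went from -2.52 to -0.84 with quantile normalization. The everolimus call of Lcn2 was lost with a pseudocount of 5 and with voom on the authors' scaling (limma's treat adjusted p = 0.0861 and 0.0711). Without normal liver replicate 2, Mt1 passed treat with everolimus (2.63 on the log2 scale) and Mt2 passed with MLN0128 and with everolimus (1.15 and 1.2), and without everolimus replicate 1 Saa3 passed with everolimus (1.67). Saa3 with everolimus also passed with equal FPKM sums and plain library totals (2.17 and 2.44). Lcn2 with MLN0128 passed with equal FPKM sums (2.67). In all, Mt1 with everolimus passed in 7 of the 24 alternatives, and Mt2 passed in 5 with either drug.

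The members spread more between mice of a tumor group than most genes did. The SD of log2(FPKM + 1) had a median over the members of 0.616 with vehicle, 0.764 with MLN0128 and 1.14 with everolimus, compared with 0.145, 0.180 and 0.167 over all genes tested, and in each tumor group all 10 members lay above the median of all genes. In normal liver the medians were 0.343 and 0.145, and 7 of the 10 lay above. Everolimus replicate 2 was the highest of the 9 tumors for 6 members (Saa1, Saa2, Orm1, Orm2, Lcn2 and Hp), whereas it was the highest for 6.76% of all genes tested. Vehicle replicate 2 was the lowest of its group for 9 of the 10 members, compared with 36.3% of all genes, and MLN0128 replicate 2 was the lowest of the 9 tumors for 5, compared with 14.1% of all genes.

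**Figure D4:**
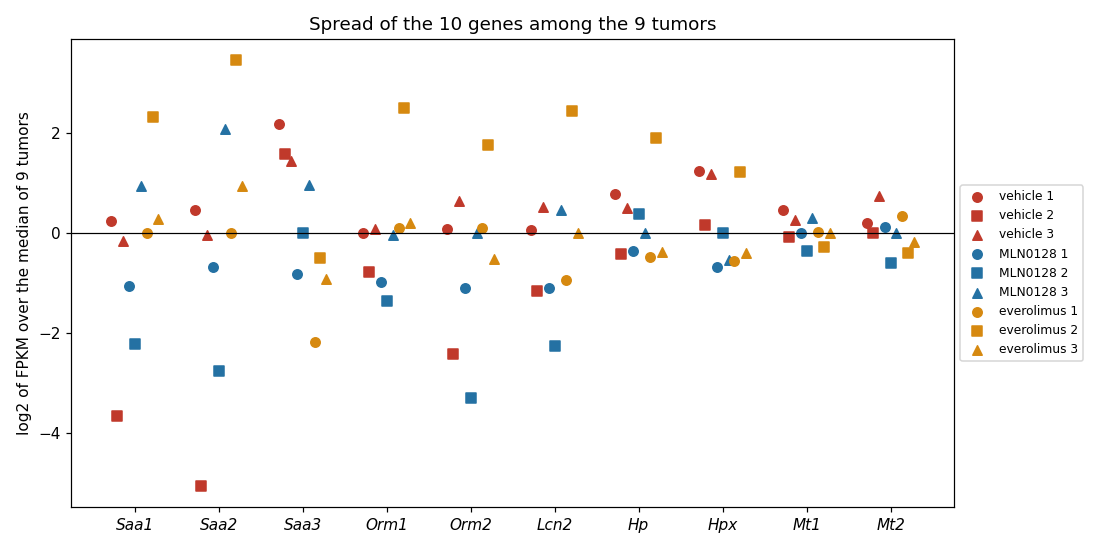
Log2 of FPKM over the median of the 9 tumors for each of the 10 genes, with color for the group and marker shape for the replicate. Everolimus replicate 2 (orange squares) is the highest tumor for 6 genes, and vehicle replicate 2 (red squares) lies lowest for Saa1 and Saa2.

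Everolimus replicate 2 also had the highest hepatocyte marker sum of the tumors (8043 FPKM, against 1855 to 6203 FPKM in the other 8) and the highest macrophage marker sum (145.6 FPKM, against 25.0 to 96.0 FPKM). Its neutrophil marker sum of 8.73 FPKM was close to the 8.52 FPKM of everolimus replicate 3. The part of these cell types in its high values was not tested. Without everolimus replicate 2, the everolimus difference from vehicle for Hp was -0.72 and for Lcn2 -0.26, against 0.05 and 0.67 with it. Its Saa3 level was within the range of the other tumors, and its Mt1 and Mt2 levels were the second lowest of the 9.

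**Figure D5:**
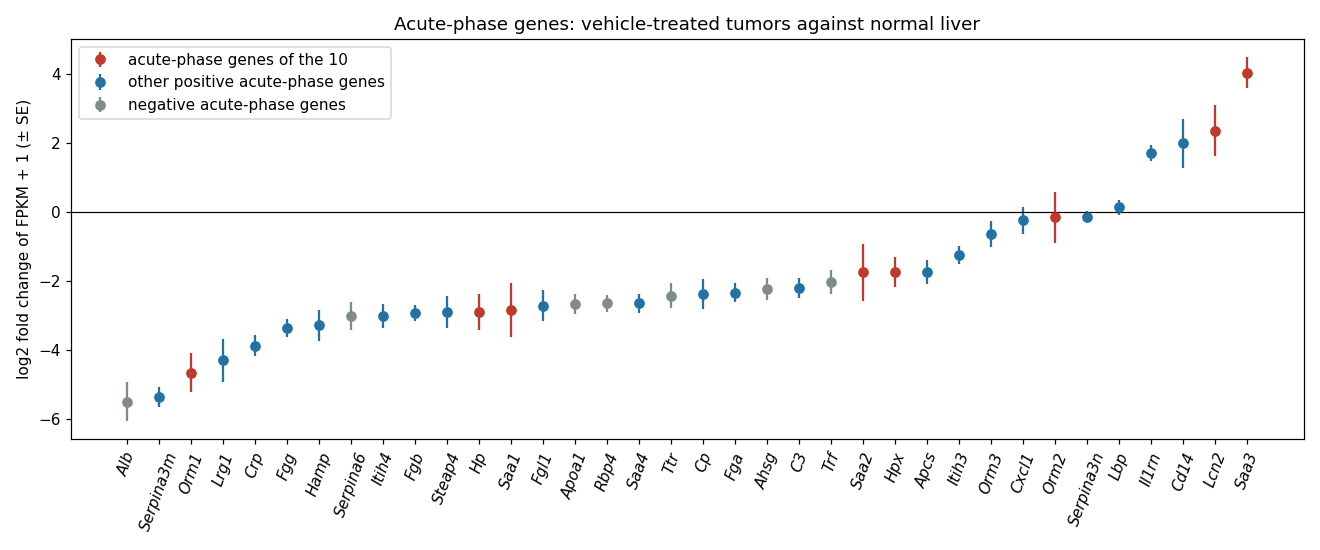
Log2 fold change of FPKM + 1 (± SE) in vehicle-treated tumors against normal liver (n = 3 per group) for the 8 acute-phase members (red), 21 other positive acute-phase genes (blue) and 7 negative acute-phase genes (grey). Most positive and all 7 negative acute-phase genes lie below 0, and Saa3 is the highest at 4.04.

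Of 21 other positive acute-phase genes, 1 rose and 15 fell in vehicle-treated tumors by limma's treat test, beside 15.9% and 16.9% of all genes. Their median was -2.38 on the log2 scale against 0.06 over all genes. The lists were tested only under the authors' scaling. Equal FPKM sums moved the median of all genes to 0.78, and whether these falls held under that scaling was not tested. The gene that rose was Il1rn, the IL-1 receptor antagonist (1.69). The largest falls were of Serpina3m, a serine protease inhibitor (-5.36), Lrg1, a leucine-rich glycoprotein (-4.31), and Crp, C-reactive protein (-3.87). Saa4, the constitutive serum amyloid, was 339, 391 and 525 FPKM in normal liver and 75.6, 49.9 and 71.7 FPKM with vehicle. All 7 negative acute-phase genes fell too, with a median of -2.65, led by Alb (-5.50), Serpina6, which carries glucocorticoids in plasma (-3.02), and Apoa1 of high-density lipoprotein (-2.67). Most positive acute-phase genes thus moved in the same direction as the negative ones.

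Counts for further lists are by limma's treat test in vehicle-treated tumors against normal liver, which called 15.9% of all genes higher and 16.9% lower. They rest on the authors' scaling, and whether they hold under other scalings was not tested. Of 9 listed ligands, 3 were in the table, and of these Lif rose (1.18). Of 7 receptors tested, Il22ra1 rose (1.51) and 4 fell, with Lifr (-4.86), Il1rap, the accessory chain of the IL-1 receptor (-4.09), and Il1r1 (-1.79) falling most. Of 11 transducers and transcription factors, 0 rose and 4 fell, led by Cebpa (-2.99), the glucocorticoid receptor gene Nr3c1 (-1.48) and Cebpb (-1.43). Among 8 STAT3 and NF-kB feedback and target genes tested, Pim1 fell (-1.16) and 0 rose. Of 9 genes of metal handling, the zinc importer gene Slc39a10 rose (2.06) and 4 fell, among them the manganese exporter gene Slc30a10 (-2.63) and Slc39a14 (-1.76). Of 8 glucocorticoid response genes, Sgk1 rose (1.78) and 3 fell, among them Tat (-3.09) and Tsc22d3 (-2.67). Of 6 tested receptors and partners of the member proteins, 0 rose and 3 fell, which were Lrp1, the hemopexin receptor (-2.48), Cd163, the receptor of haptoglobin-hemoglobin (-1.92), and Fpr2 (-1.09).

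Under MLN0128 against vehicle, limma's treat test called 2 of the 21 positive acute-phase genes, 1 of 7 receptors, 2 of 8 glucocorticoid response genes and, with Hmox1 counted in both lists, 1 of 9 genes of metal handling and 1 of 6 receptors and partners, beside 2.13% of all genes. It called 0 of the 7 negative acute-phase genes, 3 ligands, 11 transducers and transcription factors and 8 feedback and target genes. With MLN0128 against vehicle, Apcs, serum amyloid P (-2.61), and Il1rn (-1.5) fell among the 21 positive acute-phase genes, whose median was -0.02 beside -0.01 over all genes. Also lower were Il22ra1 (-1.30), the heme oxygenase gene Hmox1 (-2.60), Sgk1 (-3.41) and Tat (-3.36). With everolimus against vehicle, Sgk1 (-2.47) was the only gene of these lists called by limma's treat test, beside 0.604% of all genes, and the 21 positive acute-phase genes had a median of 0.10 beside 0.03 over all genes.

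Patterns most like those of the members were sought over the 12 libraries, with Pearson's r of log2(FPKM + 1) against the mean standardized profile of each role group. These r describe 12 libraries that fall into groups and carry no test. For Hp and Hpx the closest were Prelp, Cp and Atp9a (r = 0.98 each), and Cp encodes ceruloplasmin, a copper-carrying acute-phase protein that was 194 FPKM on average in normal liver and 36.6 FPKM with vehicle. For the orosomucoids, which correlated with each other at only 0.41, they included Igha (0.92) and Adgre1, a macrophage marker (0.87). For Lcn2 they were Lox (0.91), Mid1 (0.90) and Creb3l1 (0.89), and for the metallothioneins Rps13-ps4, Gm9755 and Ippk (0.95 each). The serum amyloid A profile had weaker partners, with Serpinb6b (0.81), Dysf (0.80) and A630001G21Rik (0.80), and it joined genes that differed among themselves, since Saa1 correlated with Saa2 at 0.93 and with Saa3 at -0.55.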

How the data were processed

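RNA of 12 libraries, 3 in each of 4 groups as labelled, was analysed from the deposited table of FPKM. Each library was taken as a separate mouse. Novogene prepared and sequenced the libraries for the authors, who assigned reads to Ensembl genes and deposited linear FPKM. The submitters' processing notes name GRCm38 and FastQC 0.11.7. The aligner, the gene lengths and the strandedness of counting are not given in the sources used here. The members and gene lists were chosen with earlier results of these data known.

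The test covered the 14397 genes that reached 0.5 FPKM in 3 or more libraries. Values were taken as log2(FPKM + 1), and the 12 libraries were fitted in 1 model with limma 3.58.1 in R 4.3.3 (8 residual degrees of freedom, intensity trend). Calls used treat with a 1.5-fold threshold. P-values set each difference against the spread between mice and were Benjamini-Hochberg adjusted over all genes. The named genes were the 10 members and, of each list, at most 3 called genes with the largest change in a comparison. One gene with a similar pattern is not reported here. Exon lengths came from GENCODE M21, found for 16864 of 17007 rows, in which 22 symbols had become dates. FPKM times exon length fell within 0.1 of whole reads for 98.0% to 98.8% of values under 20 reads, where chance gives 20%. Levels were compared between genes per length, although some of these lengths hold introns. Mt1 carries a single block of 1246 exon bases that holds its introns. The 2478 and 2518 exon bases of Saa1 and Saa2 cover nearly all of each gene. Limma's voom on these reads was an alternative chosen after seeing the data, with the authors' scaling (factors 0.585 to 0.596 in normal liver and 1.10 to 1.37 in tumors) or plain totals.

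On simulated data for the vehicle comparison (14397 genes, 200 changed, 5 runs), treat recovered 14.2% of the genes changed by 1 on the log2 scale and 91.0% of those changed by 2, with 0 false calls. The moderated test found 73.4% and 96.6%, with 9.2 false calls. The simulation gave each gene the same spread in every group and changed few genes, whereas treat called 32.7% of all genes in the real comparison. These rates therefore need not hold for the members. Figures were drawn with matplotlib 3.10.9.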

Additional observations from a re-analysis of the deposited data

How the results depend on the processing

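Over 60 member differences and 24 alternatives, 1303 of 1440 values kept their direction and their side of the threshold, 72 were no longer past it, 30 were newly past it and 35 changed sign. The causes were not tested. The number of members called against normal liver was 7 with vehicle, 6 with MLN0128 and 4 with everolimus, and quantile normalization gave 3 with vehicle and 3 with MLN0128. The moderated test, with or without a 1.5-fold change, called 7 with everolimus, as did voom with plain library totals, and called 2 in MLN0128 against vehicle in place of 0. In everolimus against vehicle, 0 in place of 1 were called with a pseudocount of 5, with quantile normalization and with only the 2 groups compared. Leaving out 1 library gave 3 (without normal liver replicate 1 or 3) to 8 called with vehicle against normal liver and 0 to 1 in everolimus against vehicle. The replicate numbers did not pair the samples (correlations of same-numbered deviations -0.289 to 0.148 over 18 pairs, of other numbers -0.287 to 0.396), and a replicate block gave 6 called with vehicle against normal liver (Hpx no longer called, limma's treat adjusted p = 0.0545), 5 with MLN0128 (Mt1 no longer called, 0.0584) and 4 with everolimus.

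Differences that changed sign had not been called. With equal FPKM sums they were Orm2 in vehicle and in MLN0128 against normal liver (0.87 and 0.34), Saa2 in everolimus against normal liver (0.81), Mt1 in MLN0128 against vehicle (0.0086, and 0.034 with quantile normalization) and Mt2 in MLN0128 against everolimus (0.14). Voom with plain library totals gave 0.69 for Orm2 in vehicle against normal liver, 0.80 for Saa2 in everolimus against normal liver and 0.10 for Mt2 in MLN0128 against everolimus. Without MLN0128 replicates 1 and 2, where the lone library is assumed to vary like the others, the values against vehicle were 0.20 for Orm1, 0.43 for Orm2, 0.59 for Lcn2 and 0.086 for Mt1. Against everolimus they were 0.038 for Saa1, 0.45 for Saa2 and 0.041 for Mt2, and against normal liver 0.27 for Saa2 and 0.27 for Orm2. Leaving out 1 library gave ranges of -0.67 to 0.60 for Orm2 in vehicle against normal liver, of -1.03 to 0.42 for Saa2 in everolimus against normal liver and, in MLN0128 against vehicle, of -0.60 to 0.75 for Saa1 and -0.41 to 1.00 for Saa2. In everolimus against vehicle they were -0.26 to 1.35 for Lcn2 and -0.72 to 0.47 for Hp, and in MLN0128 against everolimus -0.75 to 0.44 for Hp, -0.82 to 0.079 for Hpx, -0.089 to 0.24 for Mt1 and -0.15 to 0.087 for Mt2. Mt2 in normal liver rests on 1 to 7 reads, which limits its comparisons with the tumors. Why so few reads were counted was not tested.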
